A study of Mus musculus with 5 samples.

Results

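The genes that build the sarcomere of striated muscle and set its fibre type were followed in the dorsal skin of *Clock* mutant and wild-type mice. In this skin a thin sheet of skeletal muscle lies below the fat. The group holds 40 genes of known muscle function, listed when earlier results of these data, among them those of *Myom3* and *Lmcd1*, were already known. Each is read at its brightest probe set, the one with the highest mean log2 intensity over the 5 arrays among those that the array's annotation gives to that gene alone. All 40 genes had such a probe set, of 18193 named genes on the array, and 36 of them were bright enough to test, of 12955 genes in all. Of the 40, 11 are isoforms of fast fibres, 8 of slow fibres and 2 of developing muscle, and 4 are muscle enzymes and myoglobin. The other 15 are filament and Z-disc proteins that were not divided by fibre type. They are called the shared class here, although single members may still differ between fibre types.

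Skin came from 2 *Clock* mutant mice, 1 male (replicate 1) and 1 female (replicate 2), and from 3 female wild-type littermates, all at postnatal day 23 on a C57BL/6J background. All were staged by histology as telogen, when hair follicles rest, and each mouse had an array of its own. The wild-type littermates are called the controls from here on. The labels do not give the number of mutant alleles, while the hair cycle staging of the study lists its *Clock* mutants as *Cl/Cl*. Neither the time of day of collection of these mice nor how much of the muscle was dissected with the skin is given in the sources used here. Between arrays, log2 intensities correlated at 0.95 to 0.96 over all probe sets. RNA integrity was read from the ratio of 3' to 5' *Gapdh* signal, which degradation raises. It was 1.05 and 0.988 in the mutants and 0.86 to 0.955 in the controls, slightly higher in the mutants, and its part in the results was not tested. With 2 arrays against 3, precision is limited by their number.

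In a sarcomere, thick filaments of myosin slide past thin filaments of actin, tropomyosin and troponin. The Z-disc anchors the thin filaments and the M-band the thick ones, while titin spans from one to the other. Fast and slow fibres build the same machine from different genes, so that troponin I, for example, is *Tnni2* in fast and *Tnni1* in slow fibres. The panniculus carnosus of mouse skin is a mainly fast muscle of this kind. The values name the genes of striated muscle but not the muscle, so that another muscle caught in the sample would look alike.

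No sarcomere gene passed the adjusted test between the genotypes, and most had small differences, with *Tcap* the lowest and *Myom3* the highest in the mutants. By limma, 0 of 36 tested members passed an adjusted p of 0.05, as against 0.116% of all genes, and the Cyber-T style test also called 0. The median log2 difference, *Clock* mutant minus wild type, was -0.03 over the 36 members and 0.02 over all genes, with 13 members positive and 23 negative (26 and 10 after median centring of the arrays). At an unadjusted p under 0.05, 4 members were higher (11.1%) and 3 lower (8.33%) in *Clock* mutant skin, against 5.24% and 4.78% of all genes. The 4 were *Myom3*, *Lmcd1*, *Myoz2* and *Mb*, and the 3 were *Tcap*, *Myh2* and *Tnnt1*. Since *Myom3* and *Lmcd1* were listed with their values known, the share of higher members is no independent evidence. Groups that did not overlap were found for 3 members higher (8.33%) and 4 lower (11.1%) in the mutants, against 15.7% and 12.3% of all genes, so that both shares were below those of all genes. In whole skin, fewer muscle fibres and less RNA per fibre cannot be told apart.

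**Figure D1:**
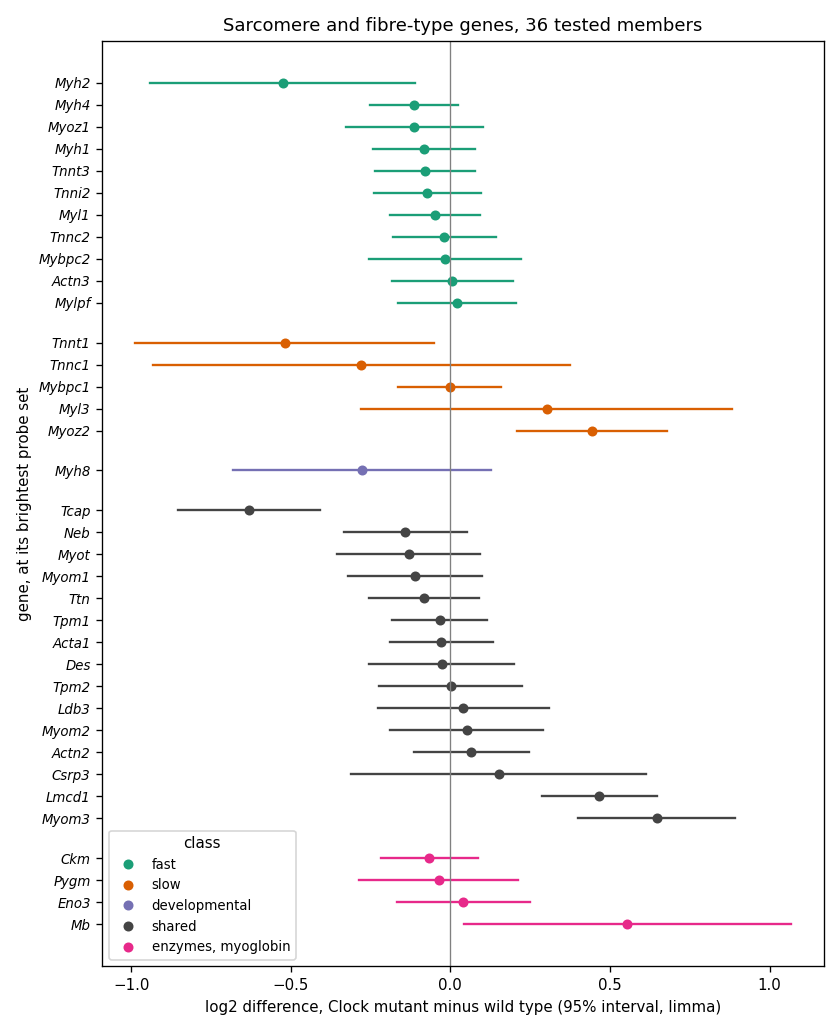
*Clock* mutant (n = 2) minus wild type (n = 3) in log2 intensity (horizontal axis) for the 36 tested members (vertical axis), coloured by class; points are limma estimates and lines their 95% intervals. Most genes lie close to 0, with *Tcap* at -0.63 at the left and *Myom3* at 0.65 at the right.

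The genes that mark striated muscle were bright on every array, with small differences between genotypes. Values are given for replicates in order, mutants first. *Acta1*, skeletal muscle actin, had intensities of 22949 and 21729 in the mutants and of 22861, 21253 and 24292 in the controls. The groups overlapped, and the log2 difference of -0.03 had a 95% interval of -0.19 to 0.13. *Ckm*, the muscle creatine kinase that buffers ATP, had intensities of 21498 and 20694 in the mutants and of 21578, 21224 and 23509 in the controls. Its log2 difference was -0.07 (SE 0.067, adjusted p = 0.748 by limma), and that of *Des*, desmin, the intermediate filament that ties Z-discs together, was -0.03 (SE 0.101, adjusted p = 0.941 by limma). Desmin was at 8123 and 6524 in the mutants and at 7414, 6980 and 7886 in the controls, so that the mutants spanned the controls. Over all members, 25 of 36 had a 95% interval inside 0.5 on the log2 scale in either direction, which is 1.41-fold.

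Of 8 cardiac genes, 4 were below the filter of 56.7 and 4 were tested. The atrial and ventricular genes *Myh6*, *Myl7* and *Nppa* did not exceed an intensity of 33.8 on any array, and *Ryr2* lay at 24.8 to 50.3. *Tnnt2*, cardiac troponin T, lay at 169 to 296, *Tnni3*, cardiac troponin I, at 40.5 to 92.1 and *Mybpc3*, cardiac myosin-binding protein, at 46.5 to 98.4. *Pax7*, which marks muscle stem cells, lay at 26.5 to 45.2. *Actc1*, cardiac actin, which skeletal muscle also makes, was bright. That gene had an intensity of 3272 in *Clock* mutant replicate 2 against 8230 to 11967 on the other 4 arrays, a log2 difference of -0.71 (SE 0.409, adjusted p = 0.557 by limma).

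Read at their brightest probe sets, fast isoforms lay close together, with *Myh2* the exception. Of 11 genes, 9 had negative and 2 positive differences, the median was -0.07, and 10 of the 11 lay between -0.114 and 0.0198. The median was 0.0165 after median centring, -0.11 without *Clock* mutant replicate 1, -0.01 without *Clock* mutant replicate 2, -0.04 without wild-type replicate 2 and -0.03 without wild-type replicate 3. *Myh4*, the myosin heavy chain of the fastest fibres (type IIb), had intensities of 22075 and 22183 in the mutants and of 23673, 23267 and 24931 in the controls. Both mutants were below all 3 controls, but by little, with a log2 difference of -0.11 (SE 0.0603, adjusted p = 0.529 by limma). A second, dimmer *Myh4* probe set, described below, was at -0.60. *Myh1*, the type IIx heavy chain, was at 14765 and 14800 in the mutants and at 14710, 16691 and 15618 in the controls, a log2 difference of -0.08 (SE 0.0705, adjusted p = 0.696 by limma). Its probe set carries the suffix that the maker gives to probes able to bind related transcripts, so part of this signal may come from other heavy chains.

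*Myh2*, the heavy chain of the fast but oxidative type IIa fibres, stood apart from the class at the brightest probe sets. Its intensity was 5227 and 8369 in the mutants and 10849, 8103 and 9821 in the controls. Replicate 1 was below every other array, while replicate 2 lay within the wild-type range. The log2 difference was -0.53 (SE 0.184, unadjusted p = 0.0186, adjusted p = 0.376 by limma). Without *Clock* mutant replicate 2 it was -0.87, and without replicate 1 it was -0.19, so that the value rests on replicate 1. That mouse was also the only male, so that sex and individual cannot be told apart.

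The other 8 fast members had differences near 0, and in none of them were the genotypes apart. Of the fast troponins, *Tnnt3*, which binds tropomyosin, was at 19686 and 17977 in the mutants and at 19178, 19549 and 20951 in the controls (log2 difference -0.08, SE 0.0699, adjusted p = 0.705 by limma). *Tnni2*, the inhibitory subunit, was at 23014 and 21809 against 23942, 21744 and 25081 (-0.07, SE 0.0739, adjusted p = 0.752 by limma). *Tnnc2*, the calcium sensor, was at 19906 and 19735 against 18818, 19904 and 21600 (-0.02, SE 0.0714, adjusted p = 0.945 by limma). In all 3 the mutants fell within or close to the control range, and the 95% intervals lay between -0.24 and 0.14. The regulatory light chain *Mylpf* was at 24388 and 21500 in the mutants and at 21921, 21434 and 24524 in the controls (0.02, SE 0.0817, adjusted p = 0.948 by limma). The fast myosin-binding protein *Mybpc2* was at 15517 and 11895 against 13152, 13681 and 14420 (-0.02, SE 0.105, adjusted p = 0.966 by limma), where the mutants lay on either side of the controls. *Myoz1*, a calcineurin-binding protein of the Z-disc, was at 10487 and 8601 against 9923, 9909 and 11014 (-0.11, SE 0.0947, adjusted p = 0.69 by limma). The essential light chain *Myl1* and the fast actinin *Actn3* of the Z-disc had log2 differences of -0.05 and 0.01.

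The slow isoforms were mixed in direction, and 3 of the 8, among them the slow myosin heavy chain, were too dim to test. *Myh7*, the slow myosin heavy chain, had intensities of 6.05 and 6.56 in the mutants and of 10.7, 16.7 and 15.5 in the controls, all below the filter. Slow troponin I, *Tnni1*, at 53.2 and 10.5 in the mutants and 56.7, 35.5 and 59.5 in the controls, was too dim as well. So was the slow regulatory light chain *Myl2*, at 38.4 and 39.1 against 47.8, 51.1 and 48.2. Of these dim genes, *Myh7* and *Myl2* were lower in both mutants than in the controls, at levels where the signal is close to background. Of the 5 slow members tested, 2 were positive and 3 negative, with a median of -0.003 that ran from -0.0225 to 0.0332 when 1 array was left out. *Tnnc1*, the slow and cardiac troponin C, was at 50.3 and 70.7 in the mutants and at 66.9, 66.2 and 85.3 in the controls, close to the filter (log2 difference -0.28, SE 0.288, unadjusted p = 0.36, adjusted p = 0.753 by limma). *Myl3*, the slow essential light chain, was at 82.4 and 114.0 against 69.8 to 87.0 (0.30, SE 0.257, adjusted p = 0.695 by limma). For both, the difference was about as large as its error. *Mybpc1*, the slow-type myosin-binding protein, which fast fibres contain as well, was at 6181 and 6087 in the mutants and at 6012, 5977 and 6457 in the controls (-0.003, SE 0.0709, unadjusted p = 0.972, adjusted p = 0.992 by limma), with a 95% interval of -0.16 to 0.16.

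*Tnnt1* and *Myoz2* were the slow members that differed most, in opposite directions. *Tnnt1*, slow troponin T, had intensities of 171 and 253 in the mutants and of 305, 339.5 and 255 in the controls. *Clock* mutant replicate 2 was just below the lowest wild-type array, and replicate 1 was well below it. The log2 difference was -0.52 (SE 0.207, unadjusted p = 0.0333, adjusted p = 0.43 by limma). It was -0.24 without *Clock* mutant replicate 1 and -0.80 without replicate 2, so that, as for *Myh2*, its size rests on replicate 1. *Myoz2*, the slow and cardiac counterpart of *Myoz1* that holds calcineurin at the Z-disc, had intensities of 2053 and 2330 in the mutants and of 1725, 1463 and 1644 in the controls. Both mutants were above all 3 controls, a log2 difference of 0.44 (SE 0.104, unadjusted p = 0.002, adjusted p = 0.23 by limma). 

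Of the listed pairs of a fast and a slow version of one protein, 4 could be set against each other, as the log2 ratio of the fast to the slow gene within each array. *Tnni1* and *Myl2* were too dim for the listed pairs of troponin I and the regulatory light chain, and the essential light chains *Myl1* and *Myl3* were not listed as a pair. Comparing ratios removes a change in the amount of muscle that both genes would share. The ratio of *Myoz1* to *Myoz2* differed by -0.56 on the log2 scale, mutants minus controls, with no overlap between groups (exact permutation test, two-sided p = 0.1, adjusted p = 0.4 over the 4 pairs). An exact test of 2 arrays against 3 cannot give less than 0.1. The ratios of *Tnnt3* to *Tnnt1* (0.44, exact p = 0.3), *Tnnc2* to *Tnnc1* (0.26, exact p = 0.5) and *Mybpc2* to *Mybpc1* (-0.01, exact p = 0.9) overlapped. No pair passed after adjustment.

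Developing muscle has heavy chains of its own, which mature fibres lose. *Myh3*, the embryonic form, was below the filter, at 41.6 and 23.3 in the mutants and 27.9, 33.9 and 36.8 in the controls. *Myh8*, the perinatal form, was at 167 and 169.6 in the mutants and at 234, 182 and 199 in the controls, so that both mutants were below the controls, with a log2 difference of -0.28 (SE 0.179, adjusted p = 0.596 by limma).

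Among the 15 filament and Z-disc proteins of the shared class, *Tcap* was lower in both *Clock* mutants than in any wild-type mouse. *Myom3* and *Lmcd1* were higher in both, while the large scaffolds had small differences. *Tcap*, telethonin, which caps the end of titin at the Z-disc, had intensities of 6271 and 6158 in the mutants and of 8979, 8953 and 11073 in the controls. The mutants were nearly equal to each other and well below the lowest control. The log2 difference was -0.63 (SE 0.0986, unadjusted p = 0.000124, adjusted p = 0.0778 by limma). It ranged from -0.68 to -0.53 over the alternatives. The adjusted p by limma was 0.0472 after quantile normalization and 0.147 after median centring of the arrays. Over the alternatives it ran from 0.0119 with a replicate block to 0.421 without the intensity trend.

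*Myom3*, a myomesin of the M-band, had intensities of 887 and 987 in the mutants and of 596, 620 and 578 in the controls. The 3 controls were tightly spaced and both mutants were far above them, a log2 difference of 0.65 (SE 0.108, unadjusted p = 0.000208, adjusted p = 0.103 by limma), or 1.56-fold. The other M-band myomesins, *Myom1* and *Myom2*, had log2 differences of -0.11 and 0.05, the latter at a probe set with the same suffix as that of *Myh1*. *Lmcd1*, a LIM-domain protein linked to calcineurin signalling in muscle, was at 2900 and 2976 in the mutants and at 2092, 2079 and 2208 in the controls, a log2 difference of 0.47 (SE 0.0791, unadjusted p = 0.000225, adjusted p = 0.103 by limma), or 1.38-fold. As with *Myom3*, the replicates of each genotype were close together and the genotypes apart. The only *Lmcd1* probe set carries a suffix for probes shared by several transcripts, although the annotation gives it to this gene alone.

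**Figure D2:**
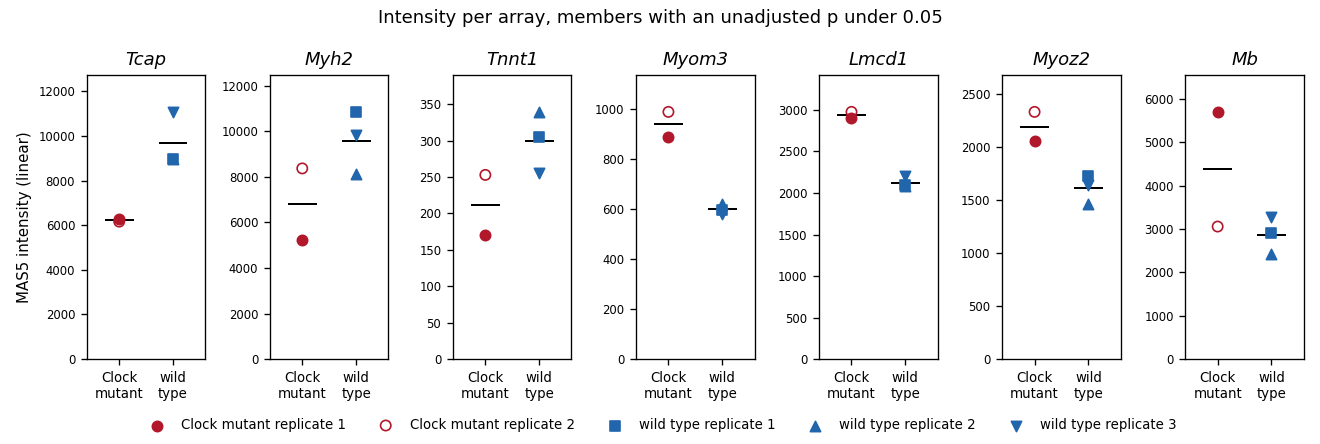
MAS5 intensity on a linear scale (vertical axes, each from 0) in *Clock* mutant and wild-type skin for the 7 members with an unadjusted p under 0.05; points are arrays and bars group means. In *Tcap*, *Myom3*, *Lmcd1*, *Myoz2* and, narrowly, *Tnnt1* the genotypes do not overlap, while in *Myh2* and *Mb* replicate 1 of the mutants, at 5227 and 5701, lies apart from the other 4 arrays.

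The other shared members had smaller differences. *Ttn*, titin, to which telethonin binds, had intensities of 18249 and 15974 in the mutants and of 17410, 17849 and 18973 in the controls, a log2 difference of -0.08 (SE 0.076). *Neb*, nebulin, which runs along the thin filament, was at -0.14, the Z-disc proteins *Actn2*, *Ldb3* and *Myot* were at 0.07, 0.04 and -0.13, and the tropomyosins *Tpm1* and *Tpm2* were at -0.03 and 0.0006. *Csrp3*, a LIM protein that senses stretch at the Z-disc, varied within each genotype, at 1615 and 2557 in the mutants and 1574, 1697 and 2295 in the controls, with a log2 difference of 0.15 (SE 0.205). The class as a whole had 7 positive and 8 negative differences and a median of -0.03, which was -0.12 without *Clock* mutant replicate 1, 0.02 without *Clock* mutant replicate 2, -0.07 without wild-type replicate 2 and 0.02 without wild-type replicate 3.

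Of the energy genes, *Mb*, myoglobin, which stores oxygen in oxidative fibres, was high in a single mouse. Its intensity was 5701 and 3057 in the mutants and 2900, 2417 and 3278 in the controls. Replicate 1 was far above the other 4 arrays, and replicate 2 lay inside the control range. The log2 difference of 0.55 (SE 0.227, unadjusted p = 0.037, adjusted p = 0.44 by limma) became 1.00 without *Clock* mutant replicate 2 and 0.10 without replicate 1. Replicate 1 was also the only male, so that sex and individual cannot be told apart. The glycolytic genes *Pygm*, muscle glycogen phosphorylase, and *Eno3*, muscle enolase, were at -0.04 and 0.04.

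Mice of 1 genotype differed in the level of the whole group of genes. Wild-type replicate 3 had the highest intensity of the 5 arrays in 18 of 36 members and lay above the 5-array mean in 30 of them, including all 11 fast genes. *Clock* mutant replicate 2 had the lowest intensity in 14 members and was below the mean in 29, while *Clock* mutant replicate 1 was above it in 22. Over the 36 members the median deviation was 0.02 and -0.07 in the mutants and -0.03, -0.03 and 0.10 in the controls, so that the mutants lay within the range of the controls except for replicate 2. Over all genes the same medians lay between -0.0165 and 0.0175. Markers of some other cells moved with them and those of others less so. The 8 fibroblast markers had medians of 0.0187 and -0.0438 in the mutants and -0.0233, -0.0367 and 0.0872 in the controls, with the sign of the members on all 5 arrays. The 5 adipocyte markers, at 0.11 and -0.254 against -0.0231, 0.0522 and 0.165, shared that sign on all but wild-type replicate 2. The 6 keratinocyte markers, at 0.028 and -0.0145 against 0.042, -0.113 and 0.0498, shared it on all but wild-type replicate 1. The 10 smooth muscle genes, at -0.0183 and 0.0485 against 0.0433, -0.107 and 0.0435, had the opposite sign on both mutants and on wild-type replicate 1. The part of these tissues in the result was not tested. Without wild-type replicate 3, 20 members were positive and 16 negative, and without *Clock* mutant replicate 1, 6 were positive and 30 negative. The median log2 difference of the members, -0.03 over all arrays, was -0.102 without *Clock* mutant replicate 1, 0.013 without *Clock* mutant replicate 2, -0.058 and -0.0591 without wild-type replicates 1 and 2, and 0.0177 without wild-type replicate 3.

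**Figure D3:**
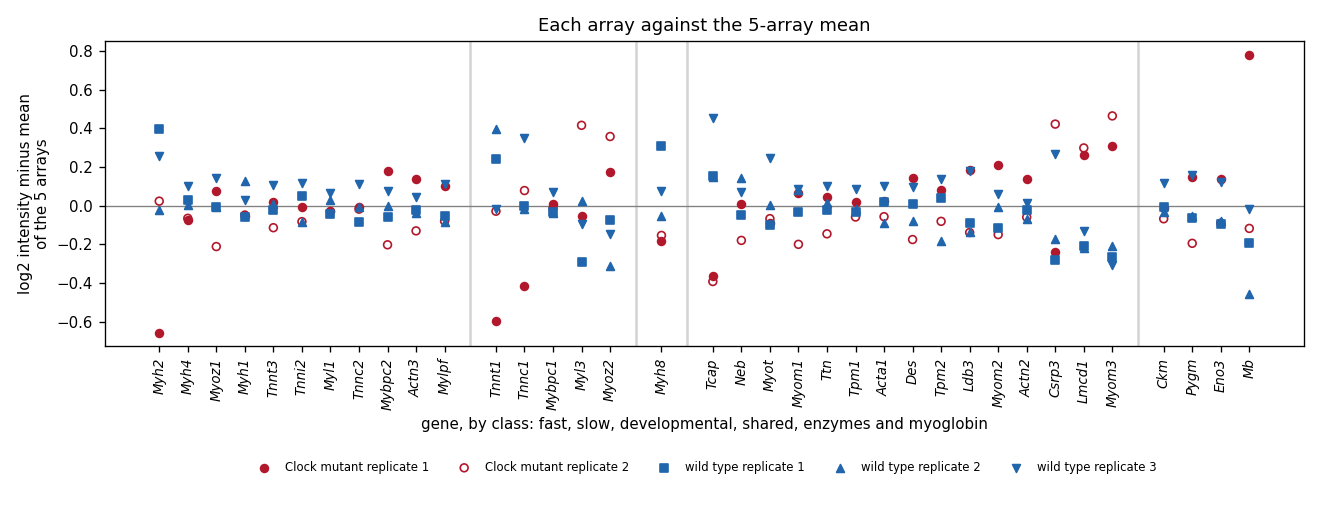
Log2 intensity of each array minus the mean of the 5 arrays (vertical axis) for the 36 tested members, by class from left to right; arrays of the mutants are red (replicate 1 filled, replicate 2 open) and those of the controls blue. Wild-type replicate 3 lies above 0 for 30 of 36 members, and *Clock* mutant replicate 1 stands apart at *Myh2*, *Tnnt1* and *Mb*.

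The members with the smallest differences were among the brightest. In the top 1% of probe sets by mean intensity, above 9240, lay 18 of the 36 tested members, and their log2 differences ran from -0.114 to 0.0511 with SEs of 0.06 to 0.11. The 18 other members ran from -0.63 to 0.646, and they held all 7 members with an unadjusted p under 0.05. The highest value of any probe set on an array was 25769 to 29617, so that *Acta1*, *Mylpf*, *Myh4* and *Tnni2* were near the upper end of the scale. Whether the signal there was close to saturation, and its part in these small differences, was not tested.

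Other probe sets of a gene gave a second reading for some members. Of 22 further tested probe sets, from 11 genes, 10 had the sign of the brightest one, and their log2 differences ran from -0.60 to 0.38. The second *Myh4* probe set had intensities of 5486 and 5322 in the mutants and of 7444, 9248 and 8012 in the controls. Here both mutants were well below the controls, a log2 difference of -0.60 (SE 0.0944, unadjusted p = 0.000127, adjusted p = 0.0778 by limma), against -0.11 at the brightest *Myh4* probe set. The second *Ldb3* probe set was at 0.38 (SE 0.108, adjusted p = 0.31 by limma) without overlap, where the brightest was at 0.04. A further *Tnni2* probe set, with the suffix for related transcripts, was at -0.40 (SE 0.163, adjusted p = 0.439 by limma), with *Clock* mutant replicate 2 at 4938 and the other 4 arrays at 7914 to 8643. The probe sets of these genes thus disagreed in size, and 0 of all 58 tested probe sets of members passed the adjusted threshold.

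**Figure D4:**
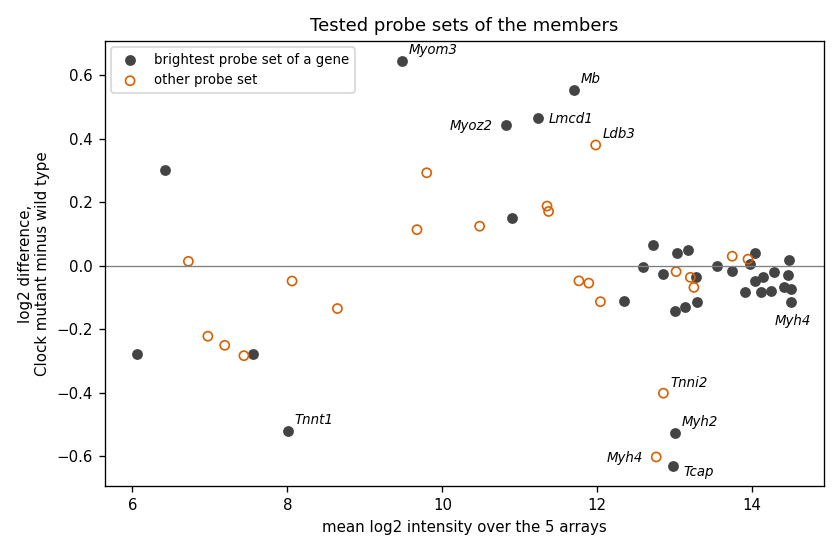
*Clock* mutant minus wild type in log2 intensity (vertical axis) against the mean log2 intensity over the 5 arrays (horizontal axis) for the 58 tested probe sets; filled points are the brightest probe set of each gene and open points the others. Points at the right edge lie close to 0, and the 2 named *Myh4* points lie at -0.11 and -0.60.

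CLOCK and BMAL1 bind the E-box CACGTG, while muscle genes are driven by myogenic factors at CAGCTG, by MEF2 and by serum response factor at the CArG box. Promoter windows of 250 bases upstream of the RefSeq start were given for 32 of the 40 members, without *Myoz1*, *Myot*, *Tcap*, *Actn3*, *Tnnt3*, *Tnni2*, *Myom2* and *Neb*. The 4 motifs were searched on both strands and their matches did not overlap in these windows. CACGTG lay in the window of 1 of 32 members (3.12%), *Actn2*, against 6.86% of 27025 genes. CAGCTG lay in 14 of 32 (43.8%, against 14.7% of genes), the MEF2 consensus in 6 (18.8%, against 3.42%) and the CArG box in 6 (18.8%, against 1.62%). These matches are descriptions of the letters and not of binding.

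The windows of the 3 members that were higher in both mutants without overlap are shown with those of *Actn2*, which held the E-box, and *Myh4*, whose probe sets disagreed. Capitals mark matches to any of the 4 motifs, and each sequence runs 5' to 3' on the strand of the gene.
*Myom3*, GRCm38.p6 chr4:135759465-135759714, plus strand: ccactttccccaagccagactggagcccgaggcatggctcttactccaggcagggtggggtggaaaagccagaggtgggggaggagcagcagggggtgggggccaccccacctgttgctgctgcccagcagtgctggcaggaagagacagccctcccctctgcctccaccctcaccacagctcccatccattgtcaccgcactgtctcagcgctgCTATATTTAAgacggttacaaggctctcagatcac
*Lmcd1*, GRCm38.p6 chr6:112273508-112273757, plus strand: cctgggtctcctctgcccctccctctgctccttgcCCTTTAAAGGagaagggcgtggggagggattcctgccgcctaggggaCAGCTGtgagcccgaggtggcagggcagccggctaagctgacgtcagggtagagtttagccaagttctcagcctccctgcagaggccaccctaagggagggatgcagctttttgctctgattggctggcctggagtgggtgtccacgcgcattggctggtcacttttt
*Myoz2*, GRCm38.p6 chr3:123034988-123035237, minus strand: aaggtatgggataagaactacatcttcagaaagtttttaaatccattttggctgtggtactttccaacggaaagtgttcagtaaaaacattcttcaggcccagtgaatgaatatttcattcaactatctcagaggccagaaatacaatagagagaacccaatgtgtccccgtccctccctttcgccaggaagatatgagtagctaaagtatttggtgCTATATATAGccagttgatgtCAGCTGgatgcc
*Actn2*, GRCm38.p6 chr13:12340733-12340982, minus strand: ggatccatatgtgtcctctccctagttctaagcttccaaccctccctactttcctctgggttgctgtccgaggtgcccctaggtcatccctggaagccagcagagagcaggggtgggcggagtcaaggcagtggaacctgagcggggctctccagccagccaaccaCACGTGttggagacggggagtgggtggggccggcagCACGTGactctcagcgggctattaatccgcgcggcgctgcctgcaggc
*Myh4*, GRCm38.p6 chr11:67237562-67237811, plus strand: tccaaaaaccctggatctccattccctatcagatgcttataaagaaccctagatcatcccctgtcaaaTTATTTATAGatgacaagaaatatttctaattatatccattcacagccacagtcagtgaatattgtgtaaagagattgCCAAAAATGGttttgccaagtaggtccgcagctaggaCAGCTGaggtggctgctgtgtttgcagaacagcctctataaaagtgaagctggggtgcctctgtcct

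In *Actn2*, the capitals at 84 and 48 bases before the start are both CACGTG, and this gene had intensities of 7406 and 6461 in the mutants and of 6626, 6418 and 6788 in the controls (log2 difference 0.07, SE 0.0792). *Myom3* and *Myoz2* each held a MEF2 match close to the start, at 35 and 33 bases before it, and *Myoz2* a CAGCTG at 12 bases. *Lmcd1* held a CArG box at 215 and a CAGCTG at 168 bases before the start. *Myh4* held a MEF2 match at 182, a CArG box at 104 and a CAGCTG at 67 bases. The 3 genes that were higher in the mutants therefore held no CACGTG in these windows, which says nothing of sites elsewhere.

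Other genes of the muscle fibre were mixed too. Of 35 further sarcomere and costamere genes, which link the sarcomere to the membrane or turn it over, 30 had a probe set and 28 were tested. By limma, 0 passed the adjusted threshold, and 3 were higher and 3 lower at an unadjusted p under 0.05 (10.7% each, against 5.24% and 4.78% of all genes). Their median difference was 0.09. The median deviation from the 5-array mean was 0.15 and -0.0588 in the mutants and -0.079, -0.0504 and 0.0503 in the controls. *Clock* mutant replicate 2 thus lay within the control range. *Xirp1*, an actin-binding protein of repair sites, had the smallest p, at 1209 and 1096 against 806, 679.6 and 774 (log2 difference 0.62, SE 0.114, adjusted p = 0.139 by limma). *Lmod3*, which builds thin filaments (0.50, adjusted p = 0.253), and *Klhl40*, which stabilises them (0.37, adjusted p = 0.31), came next. The 3 lower genes, named after their values were seen, were *Lmod2*, a relative of *Lmod3* (-0.68, adjusted p = 0.334), *Trim63*, a ubiquitin ligase of muscle breakdown (-0.51, adjusted p = 0.352), and *Nrap*, which takes part in sarcomere assembly (-0.25, adjusted p = 0.432), and in all 3 both mutants were below the controls. Of 14 myogenic and neuromuscular genes 9 were tested, with 2 higher at an unadjusted p under 0.05 (22.2%, against 5.24% of all genes) and 0 after adjustment. These were the acetylcholine receptor subunits *Chrnb1* (0.71, adjusted p = 0.273) and *Chrna1* (0.50, adjusted p = 0.431), followed by the myogenic factor *Myog* (0.72, adjusted p = 0.641), all by limma. The value of *Myog* came from 1 array, at 337 in *Clock* mutant replicate 1 against 65.6 to 144 elsewhere. *Chrnb1* was at 944 and 603 in the mutants against 436 to 503 in the controls, and *Chrna1* at 629 and 491 against 298 to 454. Over the 9 tested genes the median deviation was 0.283 and -0.156 in the mutants, against -0.14 to -0.0212 in the controls.

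The other tissues of the skin were compared through their marker lists. Of the cardiac genes, *Tnnt2* had a log2 difference of 0.54 (adjusted p = 0.391), with both mutants above the controls, and *Tnni3* one of -0.47 (adjusted p = 0.632). Smooth muscle, of vessels and hair erector muscles, had 10 tested genes of 10, with 0 past the adjusted threshold and a median of 0.05. Its summed intensity was 19945 to 20743 in the mutants and 18064 to 19955 in the controls, and *Myocd*, its master regulator (-0.94, adjusted p = 0.436), had the smallest p, followed by the contractile genes *Cnn1* (0.25, adjusted p = 0.598) and *Acta2* (0.12, adjusted p = 0.646). Summed intensities also overlapped for 5 adipocyte genes (36214 to 41970 in mutant, 40850 to 46135 in wild type), 8 fibroblast genes (126935 to 130992, against 127530 to 138236) and 6 keratinocyte genes (86504 to 87343, against 79194 to 88312). The adipocyte genes *Cidec* (-0.36, adjusted p = 0.339) and *Fabp4* (-0.18, adjusted p = 0.416) were lower in both mutants than in all controls, while the fibroblast gene *S100a4* (0.37, adjusted p = 0.153) and the keratinocyte gene *Krt1* (0.31, adjusted p = 0.34) were higher in both. *Retn* in fat (-0.06, adjusted p = 0.89), *Vim* (-0.12, adjusted p = 0.519) and *Dcn* (-0.05, adjusted p = 0.801) in fibroblasts, and *Flg* (-0.26, adjusted p = 0.376) and *Krt5* (0.16, adjusted p = 0.519) in keratinocytes completed these lists' smallest p, all by limma. No gene of these lists passed the adjusted threshold. At an unadjusted p under 0.05, 5.24% of all genes were higher and 4.78% lower. Of the tested genes, 1 of 4 cardiac (25%), 1 of 8 fibroblast (12.5%) and 1 of 6 keratinocyte genes (16.7%) were higher. Lower were 1 of 10 smooth muscle (10%, the dim *Myocd*), 2 of 5 adipocyte (40%) and 1 of 6 keratinocyte genes (16.7%). In lists this short a single gene moves the share by much. The part of these tissues in the muscle values was not tested.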

How the data were processed

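Dorsal skin RNA of 5 mice was profiled on Affymetrix whole-genome mouse arrays, 1 per mouse. The deposited values were signal intensities that the authors made with MAS5 per the labels, which subtracts mismatch signal and scales each array. Tested on the values, every array had a 2% trimmed mean of 500, with array medians within 0.16 (log2) of each other, so the scaling was kept. The MAS5 version is not given in the sources used here. Genes were named from the platform annotation, and 34945 probe sets had 1 symbol, 932 several and 9160 none.

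Log2 was taken after a floor of 1. Probe sets under the 40th percentile of mean log2 intensity (56.7) were left out, and 27022 were fitted with limma 3.58.1 in R 4.3.3 (lmFit, eBayes with an intensity trend, two-sided, Benjamini-Hochberg over all of them, threshold 0.05). The limma fit was also run on simulated arrays, with the spread shuffled among probe sets. These lack the link of spread to intensity that the trend uses, and no result here rests on them. No list was tested as a set. The members, the classes and the gene lists were chosen with earlier results of these data known, among them those of *Myom3* and *Lmcd1*. Every member is named, with the value of every array and the limma statistics where the unadjusted p was under 0.01 or the gene is one of a listed fast and slow pair, a heavy chain or desmin, and the up to 3 smallest p of the other muscle and tissue lists are given. Each fit was repeated with quantile or median scaling, without the filter or with the 60th percentile, with an offset of 32 before log2, without the trend, with a robust prior, as a Cyber-T style test (window 101, weight 10), with a gene's probe sets averaged, with a replicate block and without each array in turn.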

Additional observations from a re-analysis of the deposited data

How the results depend on the processing

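Of 36 tested members, 12 kept their sign in each of the 15 alternatives that tested them, including *Tcap*, *Myom3*, *Lmcd1*, *Myoz2*, *Myh2* and *Tnnt1*. The other 24 turned at least once. Not every alternative could turn a sign. Changes of the filter, the trend, the prior or the test left each difference as it was. So did the mean of probe sets for genes with 1 probe set. The replicate block gave the same differences as leaving out wild-type replicate 3. Among the fits that kept both mutants, the count of members past the adjusted threshold was 1 after quantile normalization (*Tcap*) and 1 with a replicate block (*Tcap*, adjusted p = 0.0119 by limma). With the other settings that kept both mutants it was 0. Leaving out a mutant array leaves a single mutant mouse, so that no spread among mutants enters the p-values or counts of such fits. Over the alternatives the adjusted p was 0.0119 to 0.421 for *Tcap*, 0.0526 to 0.405 for *Myom3*, 0.0739 to 0.51 for *Lmcd1* and 0.148 to 0.757 for *Myoz2*. Over all 27022 probe sets, 24 passed in the reported fit and 0 without a trend, without wild-type replicate 2 or without wild-type replicate 3. Same-numbered arrays of the genotypes shared only a number (correlations of their deviations 0.0078 and 0.0986), and the replicate block raised that count to 106. It was 201 without *Clock* mutant replicate 2. The count of members lower at an unadjusted p under 0.05, 3 as reported, was 1 with no trend, 6 with the mean of probe sets and 1 to 5 when 1 array was left out, and that of higher members stayed at 3 to 5.

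Median centring raised the median of all genes from 0.0159 to 0.104 and turned the split of the members from 13 positive and 23 negative to 26 and 10. The medians became 0.0165 for fast, 0.0858 for slow and 0.0574 for all members. The slow median was -0.308 with no filter, where 3 genes below the filter entered, and -0.116 with the mean of probe sets. For *Mb* the mean of probe sets took in a second probe set below the filter. Median centring moved all values of an array by the same amount. It therefore raised the log2 difference of every member alike, and only small negative differences turned. The replicate block turned the same members as leaving out wild-type replicate 3, with the same differences. For the remaining changes of sign the cause was not tested. Dim slow and developmental genes, near or below the filter of 56.7, are limited by signal over background.

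Signs turned under median centring for *Myh1* (0.00587), *Tnnt3* (0.00882), *Tnni2* (0.0165), *Tnnc2* (0.0699), *Myl1* (0.0399), *Mybpc2* (0.0719), *Mybpc1* (0.0858), *Acta1* (0.0603), *Ttn* (0.00687), *Tpm1* (0.0545), *Des* (0.0613), *Ckm* (0.0222) and *Pygm* (0.0523). They turned under quantile normalization for *Tnnc2* (0.0130), *Acta1* (0.00421) and *Tpm2* (-0.000686). With the mean of probe sets they turned for *Tnni2* (0.00149), *Mybpc1* (0.0462), *Myom2* (-0.164), *Tpm1* (0.00436), *Tpm2* (-0.0303), *Ckm* (0.0295) and *Mb* (-0.864). With the replicate block they turned for *Tnnc2* (0.0344), *Mybpc2* (0.0183), *Mybpc1* (0.0332), *Acta1* (0.0187), *Tpm1* (0.00406), *Des* (0.0171) and *Pygm* (0.0356).

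When 1 array was left out, the ranges that crossed 0 were *Tnnc2* (-0.0651 to 0.0344), *Mylpf* (-0.0711 to 0.111), *Actn3* (-0.127 to 0.140), *Mybpc2* (-0.208 to 0.175), *Myoz1* (-0.256 to 0.0303), *Mybpc1* (-0.0225 to 0.0332), *Acta1* (-0.0777 to 0.0187), *Actn2* (-0.0327 to 0.164), *Ttn* (-0.178 to 0.0146), *Myom1* (-0.243 to 0.0226), *Myom2* (-0.129 to 0.231), *Tpm1* (-0.0716 to 0.00406), *Tpm2* (-0.0898 to 0.0813), *Ldb3* (-0.122 to 0.203), *Des* (-0.185 to 0.131), *Csrp3* (-0.181 to 0.483), *Pygm* (-0.208 to 0.136) and *Eno3* (-0.0732 to 0.155).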
